A study of Prunus domestica x Prunus domestica subsp. insititia with 6 samples.

Results

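In leaves of a plum rootstock, 57 genes had a lower level in every flooded library than in any control library, by at least 1.5-fold. Levels are CPM, the reads of a gene relative to its library's reads in the tested genes, scaled by TMM library factors. Each of the 57 genes had at least 5 CPM on average in control leaves. They were found among 16917 genes with enough reads to be tested, of 26873 gene models listed. The gap of a gene is the difference between its lowest control value and its highest flooded value in log2 CPM, computed with a prior count of 2. The genes were thus chosen by their measured levels in all 6 libraries, so their fall describes how they were picked, and no test of it is drawn on here. Any p-values given below for single genes are descriptions, since the same contrast chose the genes.

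The plants were Julior, a cross of Prunus insititia with Prunus domestica propagated by cuttings and labelled as tolerant of flooding stress. All were 10 months old and grew in pots of orchard soil in a greenhouse. The 3 control samples came from plants irrigated each day to field capacity, and the 3 flooding samples from plants kept for 48 hours under about 3 cm of water over the soil surface. The labels give the tissue as leaf and do not say whether samples came from separate plants, so the spread between them may be technical. The series' design text speaks of duplicates where the labels list 3 samples for each group.

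Flooding fills the pores of soil with water and cuts the supply of oxygen to roots. Leaves usually stay in air, and their transcripts then respond to signals and to changed water, hormone and nutrient flow from the roots. Common leaf responses in woody plants include closing of stomata, slower photosynthesis and slower growth. The count files carry gene identifiers without names or products, and no annotation was used here, so no function is given for any of the 57 genes and the leaf label was not checked against marker genes. The genes with the widest gap and with the most control reads are named by identifier, and the others are described by rank.

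Reads in genes numbered 13342964 to 15864206 in the control libraries and 11070986 to 12578205 in the flooded ones. Every control library was therefore deeper than every flooded one, which the scaling to CPM takes into account. In raw reads the groups did not overlap in any of the 57 genes, which follows from the rule and the deeper controls. Over all tested genes, flooding replicate 3 lay near the controls, and control replicate 2 lay near flooding replicate 3. Across genes, control replicate 2 had r = 0.935 with control replicate 1 and 0.9573 with control replicate 3, below its 0.9602 with flooding replicate 3. Its 0.9486 and 0.9509 with flooding replicates 1 and 2 were above the first of these values and below the second. Flooding replicate 3 had 0.9573, 0.9602 and 0.9592 with control replicates 1 to 3, above its 0.9569 and 0.9448 with flooding replicates 1 and 2. Without control replicate 2 the same rule picked 347 genes, among them 56 of the 57. Without flooding replicate 3 it picked 122 genes, with all 57 among them. Leaving out control replicate 1 gave 93 genes and leaving out flooding replicate 2 gave 123, with 54 and 56 of the 57 among them. Fewer libraries can only ease the rule on the gap, apart from a refitted scaling, so these counts do not measure stability.

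Over the 57 genes the fitted fall had a median of 3.10-fold and ran from 1.78-fold to 59.8-fold. The median log2 fold change, flooding minus control, was -1.63 in these genes and 0.00 over all tested genes. A fall of at least 8-fold was fitted for 7 genes and one of at least 4-fold for 22, while 32 fell between 2-fold and 4-fold and 3 by less than 2-fold. The gap itself, which compares only the nearest libraries of the groups, was at least 4-fold in 7 genes and at least 2-fold in 27. In bulk leaf tissue, a lower number of cells that express a gene and less of its RNA per cell cannot be told apart.

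**Figure D1:**
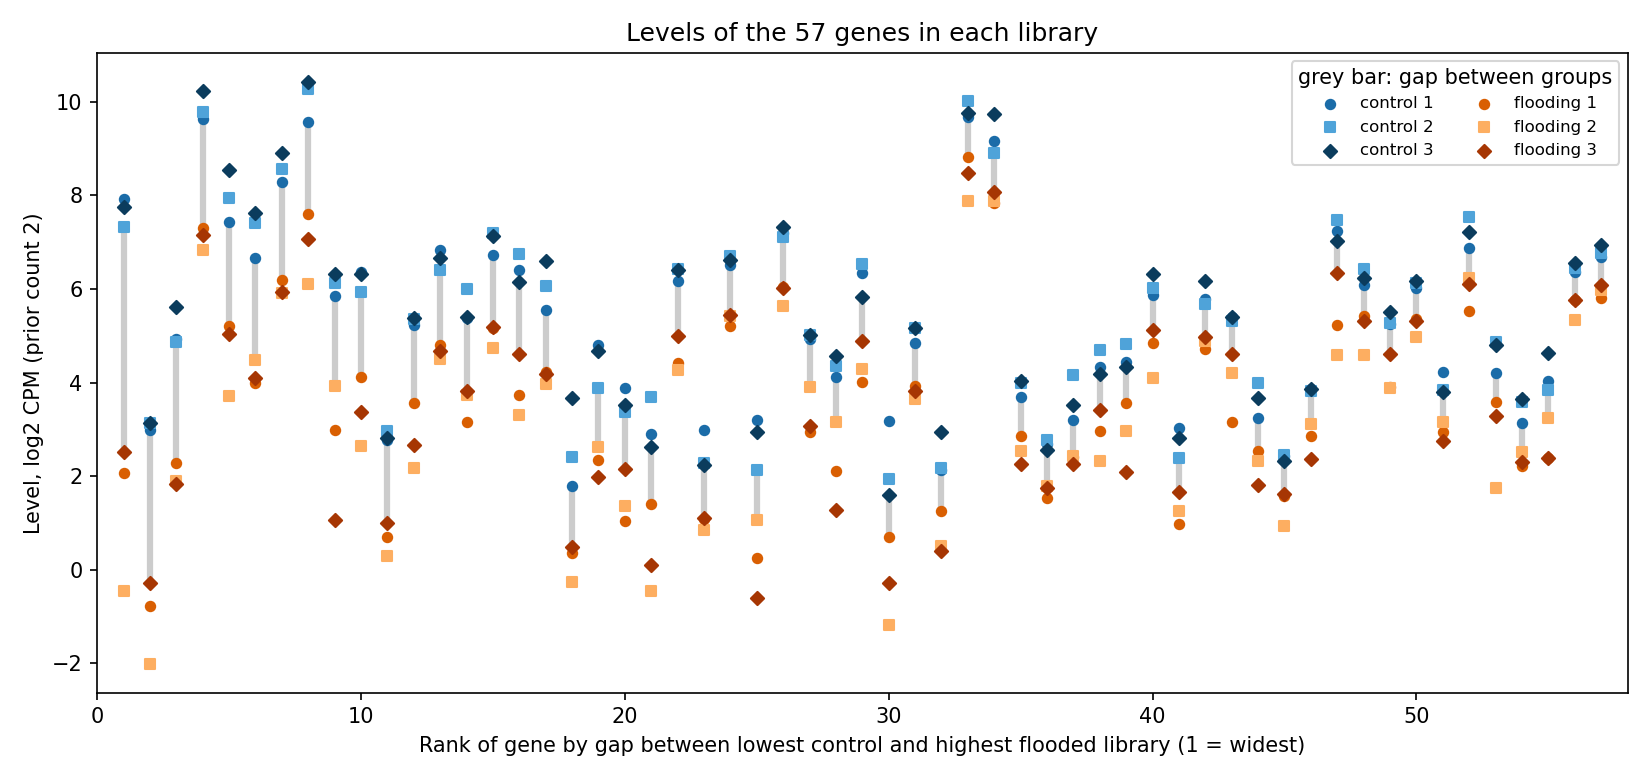
Level of each of the 57 genes in each of the 6 libraries (log2 CPM with a prior count of 2, vertical axis), ordered by the gap between the groups (horizontal axis, widest at the left). Blue points are control libraries, orange points are flooded libraries and the grey bar is the gap, which shrinks from 4.82 for the first gene to 0.59 for the last.

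The widest gap belonged to Prupe.8G107300_v2.0.a1. Its level was 242, 160 and 215 CPM in control replicates 1 to 3 and 4.05, 0.582 and 5.53 CPM in flooding replicates 1 to 3. These values rest on 3937, 2335 and 3051 reads in control and on 47, 6 and 66 reads in flooded leaves. All flooded libraries were thus far below all controls, and flooding replicate 2 was the lowest of them. Its 6 reads correspond to 0.214 to 1.27 CPM (exact 95% Poisson interval, counting error only), which lies below the interval of flooding replicate 1 (2.97 to 5.38 CPM). The flooded mean was 1.65% of the control mean, and the highest flooded library was still 28.3-fold below the lowest control. The log2 fold change was -5.90 (SE 0.66, edgeR quasi-likelihood adjusted p = 0.0680), short of the threshold of 0.05. The same contrast chose the gene, so this p-value is a description.

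The gene with the second-widest gap, 9.67-fold, had few reads and very even controls. Its control level was 7.79, 8.58 and 8.65 CPM, from 123 to 127 reads. In flooding replicates 1 to 3 it had 0.431, 0.0970 and 0.670 CPM, from 5, 1 and 8 reads. With so few reads the order of its flooded libraries is not resolved, whereas all of them lie well below the controls. In the gene with the third-widest gap, control replicates 1 to 3 had 30.1, 28.9 and 49.1 CPM and flooding replicates 1 to 3 had 4.74, 3.59 and 3.43 CPM. Here control replicate 3 was the high library and the flooded libraries were close together.

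By reads, the leading gene was Prupe.8G126000_v2.0.a1. CPM is not divided by transcript length, and lengths were not used here, so an order of genes by CPM is an order of reads and not of transcript abundance. This gene had 758, 1231 and 1373 CPM in control replicates 1 to 3 and 194, 69.1 and 134 CPM in flooding replicates 1 to 3. Flooding replicate 1 was the highest flooded library, at 2250 reads, and control replicate 1 the lowest control, at 12357 reads. The means were 1121 ± 322 CPM without and 132 ± 62.4 CPM with flooding (SD, n = 3 each), so that the flooded mean was 11.8% of the control mean. Its log2 fold change of -3.08 (SE 0.44, edgeR quasi-likelihood adjusted p = 0.111) did not pass the threshold, and the gap was 3.91-fold.

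Another 3 genes had a control mean of at least 500 CPM. The second by reads held 793, 876 and 1205 CPM in the control libraries and 157, 114 and 142 CPM in the flooded ones. The third held 815, 1043 and 869 CPM against 452, 236 and 356 CPM, and the fourth 575, 482 and 854 CPM against 227, 237 and 269 CPM. The fall was deeper in the second gene, to 14.4% of its control mean, than in the third and the fourth, where 38.3% and 38.4% remained. In the third the flooded libraries were spread widely, and in the fourth they lay close together while the controls were spread.

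The 57 genes together took up 0.649%, 0.638% and 0.845% of gene reads in control replicates 1 to 3. In flooding replicates 1 to 3 they took up 0.200%, 0.136% and 0.181%. The means were 0.711% ± 0.116 and 0.172% ± 0.0329 (SD, n = 3 each), a ratio of 4.13. Much of this sum came from few genes: the 5 with the most control reads made up 0.412% ± 0.0845 of control reads and 0.0908% ± 0.0239 of flooded reads (SD, n = 3 each). The other 52 genes fell from 0.298% ± 0.0332 to 0.0813% ± 0.0107 (SD, n = 3 each), a ratio of 3.67. In both portions control replicate 3 was the highest library and flooding replicate 2 the lowest. The direction of these sums is fixed by the choice of genes.

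**Figure D2:**
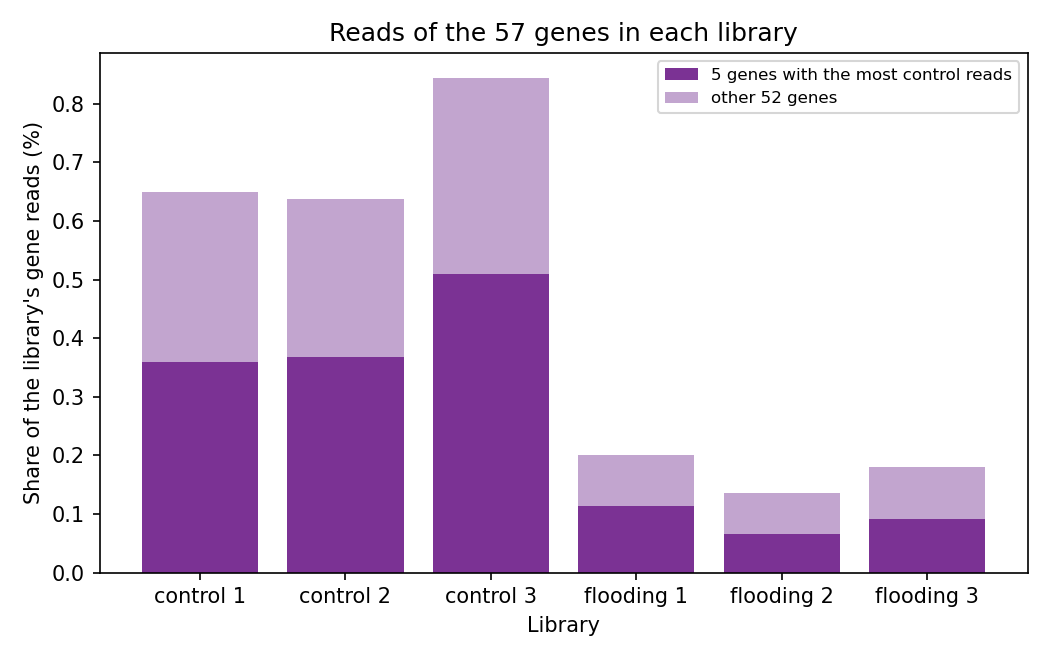
Share of each library's gene reads that fell in the 57 genes (vertical axis, percent), with the 5 genes with the most control reads in dark and the other 52 in light purple. The controls reach 0.638% to 0.845% and the flooded libraries 0.136% to 0.200%.

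Levels of the 57 genes covered a wide range. The control mean ran from 5.12 to 1121 CPM with a median of 40.5 CPM, and the flooded mean from 0.399 to 348 CPM with a median of 10.2 CPM. At least 100 CPM in control was reached by 13 genes, whose median log2 fold change was -2.0 (range -5.90 to -0.84). Another 33 genes had 10 to 100 CPM, with a median of -1.50 (range -3.20 to -0.83). The remaining 11 had 5 to 10 CPM, with a median of -2.27 (range -4.32 to -1.02). Each of the 3 bands therefore held both deep and shallow falls. In 47 of the 57 genes each flooded library had at least 20 reads, in 6 some flooded library had fewer than 10 reads, and each gene had at least 1 read in each library.

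**Figure D3:**
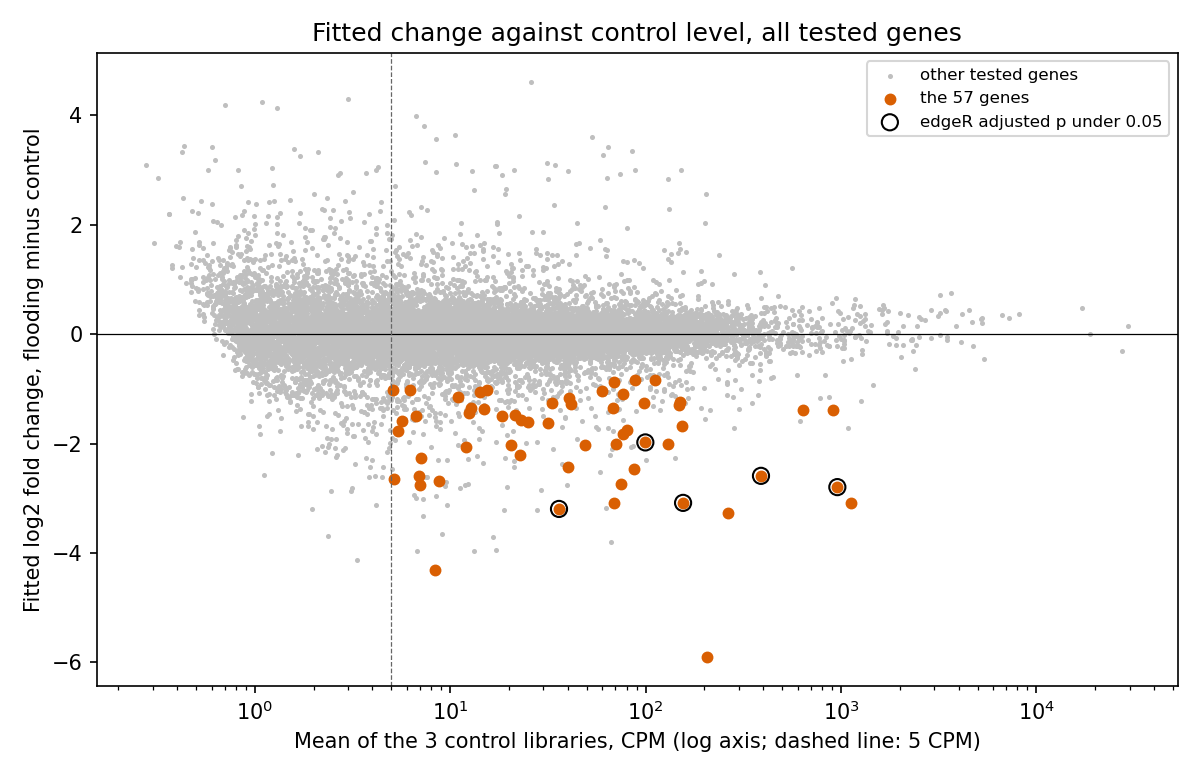
Fitted log2 fold change, flooding minus control (vertical axis), against the mean of the 3 control libraries in CPM (horizontal log axis) for all 16917 tested genes. The 57 genes are orange, those past an edgeR adjusted p of 0.05 are ringed, and grey genes at similar fold changes failed the rule on the gap or on the control mean; the 57 run from -5.90 to -0.83.

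In edgeR's quasi-likelihood fit over all tested genes, 5 of the 57 were called lower at an adjusted p under 0.05, and the called share of all tested genes in that direction was 0.0296%. The same contrast chose the genes, so nothing is read from this difference. These 5 held ranks 3, 4, 6, 7 and 13 by gap. The gene at rank 13 had a gap of 3.03-fold, with 113, 84.4 and 101 CPM in control and 27.7, 22.6 and 25.5 CPM after flooding. That at rank 7 had 311, 376 and 482 CPM against 72.4, 60.5 and 61.0 CPM. That at rank 6 had 101, 169 and 197 CPM against 15.8, 22.2 and 16.9 CPM. On the log2 scale, the flooded libraries of these 3 genes lay closer together than those of the gene with the widest gap. At an adjusted p under 0.1, 16 of the 57 were called, where 0.1% of all tested genes were called lower.

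The calls depended on the tool and on single libraries. DESeq2 called 56 of the 57 lower (0.692% of the genes it tested were called lower) and limma-voom called 4 (0.0236%). In edgeR, upper quartile factors gave 7 (0.0414%), library totals 9 (0.0532%), no filter 9 (0.0393%) and a filter on CPM 6 (0.0365%). Without control replicate 2, edgeR called 17 of the 57 lower, with 0.554% of tested genes called lower. Without flooding replicate 2 it called 1 (0.00579%), and without any other single library 0 of the 57 and 0% of tested genes. At an unadjusted p under 0.05 in edgeR, all 57 were lower in each of those 4 fits with no call, among 294 to 774 lower genes of all tested ones. The choice of the genes bears on that count, so nothing is read from it. The median log2 fold change of the 57 stayed between -1.72 and -1.61 in the 6 fits that left out 1 library. Without both control replicate 2 and flooding replicate 3, a setting chosen after the data were seen, 23 of the 57 were called (0.883%).

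At the edge of the rule the values ran on without a break. The 5 genes just inside had gaps of 0.63, 0.62, 0.61, 0.60 and 0.59 on the log2 scale, and the 5 just outside had 0.58, 0.56, 0.56, 0.55 and 0.54, among genes with at least 5 CPM in control. The last gene inside had 102, 109 and 123 CPM in control and 55.5, 62.7 and 68.1 CPM after flooding. Its groups did not overlap, and 55.7% of its control mean remained. With no margin at all, 845 of the 12750 tested genes with at least 5 CPM in control (6.63%) had every flooded library below every control, and the 57 are 0.447% of those 12750. A further 27 genes met the margin but lay below 5 CPM in control. The mirror rule, with every flooded library at least 1.5-fold above every control and a flooded mean of at least 5 CPM, gave 42 genes.

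In most of the 57 genes the flooded libraries were more spread than the controls on the log2 scale. The SD of log2 CPM between the control libraries had a median of 0.26 (range 0.02 to 0.96), and between the flooded libraries 0.38 (range 0.10 to 1.59). Over all tested genes with at least 5 CPM in control these medians were 0.19 and 0.22. The controls spanned 2-fold or more in 6 of the 57 genes and the flooded libraries in 19, against 10.1% and 12.2% of the tested genes at that level. In 16 of the 57 the controls were the more spread group. The rule itself bears on spread, since genes with scattered libraries rarely leave a gap, and low flooded counts add counting error, so these figures are descriptions.

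The evenest genes kept both groups within 1.5-fold of their own lowest library, which held for 12 of the 57. One of them, at rank 24 by gap, had 91.6, 104 and 98.5 CPM in control and 36.8, 42.9 and 43.1 CPM after flooding. Its log2 fold change was -1.26 (SE 0.13, edgeR quasi-likelihood adjusted p = 0.0605). At the other extreme, the gene at rank 9 had even controls of 57.2, 70.3 and 79.5 CPM but flooded values of 7.75, 14.9 and 1.93 CPM. Here flooding replicate 3 was the lowest and flooding replicate 2 the highest flooded library, with 23 and 154 reads. The gene at rank 47 showed another order, with 151, 177 and 130 CPM in control and 37.5, 23.9 and 81.0 CPM after flooding. Its flooding replicate 3 came nearest to the controls. The gene at rank 18 was uneven among its controls, at 3.31, 5.15 and 12.7 CPM, against 1.12, 0.679 and 1.26 CPM after flooding.

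Which library was lowest or highest within its group was not fixed by the rule, but the rule bears on it. It acts on the lowest control and the highest flooded library, so genes pass more easily with some orders than with others. Control replicate 1 was the lowest control in 32 of the 57 genes (56.1%), against 39.0% of the tested genes with at least 5 CPM in control. Control replicate 3 was the highest control in 27 (47.4%, against 21.2%). Among flooded libraries, flooding replicate 2 was the lowest in 30 (52.6%, against 34.3%) and flooding replicate 3 the highest in 23 (40.4%, against 35.8%). Flooding replicate 1 was the highest in 21 (36.8%, against 32.0%). Control replicate 2 was the lowest control in 14 (24.6%, against 33.0%). These shares are descriptions, since the rule bears on this order and genes that vary together are not independent.

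**Figure D4:**
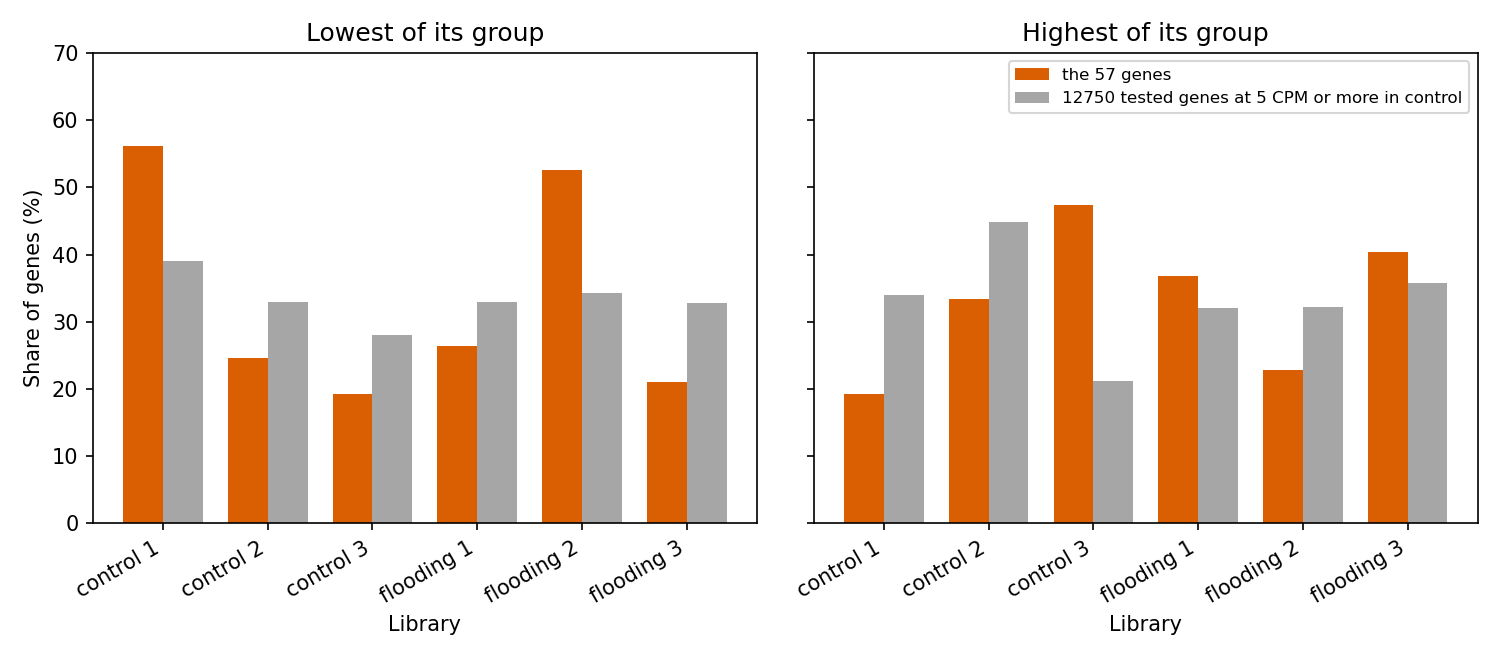
Share of genes (vertical axis, percent) in which each library (horizontal axis) was the lowest (left) or the highest (right) of its own group of 3, for the 57 genes (orange) and for the 12750 tested genes with at least 5 CPM in control (grey). Control replicate 1 and flooding replicate 2 were the most frequent lowest libraries among the 57, at 56.1% and 52.6%.

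Differences within groups went both ways among the 57 genes. Control replicate 2 lay 0.04 (median, log2) above the mean of the other controls, against 0.05 over the tested genes at that level. With library totals in place of TMM factors the first value was -0.20, so its direction depends on the scaling. Regardless of sign, its median distance from that mean was 0.27, against 0.24 over the tested genes at that level. Flooding replicate 3 lay 0.14 above the mean of the other flooded libraries, against 0.02 over the tested genes at that level. Its median distance regardless of sign was 0.37, against 0.23. The offset was not particular to this library. From the mean of all 3 flooded libraries, flooding replicates 1, 2 and 3 had median deviations of 0.10, -0.15 and 0.09 in the 57 genes. Over the tested genes at that level these were -0.01, -0.01 and 0.01. Set between the control mean at 0% and the mean of the other flooded libraries at 100%, the median position of flooding replicate 3 was 90.9% (range 38.7% to 194%). Flooding replicate 1 was at 91.4% (47.9% to 228%) and flooding replicate 2 at 112% (45.0% to 240.1%). Since the rule required each flooded library to lie below the controls, a position near the controls could not occur among these genes.

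The digit that follows the prefix in the identifiers runs from 1 to 8, and the files do not say what it stands for. All 8 digits occurred among the 57 genes, in 10, 9, 8, 5, 5, 7, 6 and 7 genes from digit 1 to digit 8. That was 0.260% of the tested genes with digit 1, the lowest share, and 0.436% of those with digit 2, the highest. In the ordered list of identifiers, 4 pairs of the 57 genes lay within 20 lines of each other. How many such pairs 57 randomly drawn genes would give was not computed, so nothing is read from this count. The closest pair stood on adjacent lines. Its first gene is the even gene at rank 24, and its second, at rank 14, had 41.4, 63.5 and 42.3 CPM in control and 8.79, 13.2 and 14.1 CPM after flooding. In this pair control replicate 2 was the highest control of both genes, and flooding replicates 1 and 3 were the lowest and the highest flooded library of both, the latter by little in the first gene. The next pair stood 2 lines apart, with log2 fold changes of -1.25 and -2.01. The pairs that stood 7 and 14 lines apart had -1.26 with -1.35 and -0.84 with -3.26. Whether neighbours share reads through similar sequence or overlap was not tested.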

How the data were processed

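Leaf RNA libraries of 3 control and 3 flooded samples were used, made with a TruSeq kit per the labels. The authors deposited whole-number read counts for each gene model, unnormalized. Tools named in the submitters' processing notes are FastQC (0.11.7), Trimmomatic, HTSeq (0.11.1) and edgeR (3.8), with no roles. The aligner, genome build, strand setting and species of the gene models are not given in the sources, so values of similar, overlapping or antisense genes are uncertain. The 5 closing rows that name no gene held 14.1% to 19.0% of listed reads and were left out.

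The analysis ran in R 4.3.3 and edgeR 4.0.16 (filterByExpr, TMM, quasi-likelihood F test, no covariate, Benjamini-Hochberg adjustment over all tested genes, threshold 0.05). The SE is the fold change divided by the root of F. Alternatives used DESeq2 1.42.0, limma 3.58.1, other scalings, filters and margins, a replicate block, and fits without each library. Scripts were tested on simulated data. The members, the rule for named genes (widest gap, most control reads) and the alternatives were chosen with earlier results of these data known. Gene lists by product could not be used without annotation. Every pair of libraries differed beyond sampling noise (chi-square per gene at least 21.5).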

Additional observations from a re-analysis of the deposited data

Results flagged for a closer look

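Flooding replicate 2 had 5.63% of its listed reads outside the counted features, where the controls had 1.19% ± 0.164 (SD, n = 3), so it lay over 3 SD above the control mean. This is the library that was most often the lowest flooded one among the 57 genes, and the part of these reads in that order was not tested. In flooding replicate 1, 12.8% of listed reads had no unique alignment, where the controls had 10.9% ± 0.520 (SD, n = 3), also over 3 SD above.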

How the results depend on the processing

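The number of genes picked was 57. It was 27 with a margin of 2-fold, 845 with no margin, 64 to 347 with 1 library left out (the highest without control replicate 2) and 545 without control replicate 2 and flooding replicate 3, a setting chosen after the data were seen. The other 9 settings gave 46 to 84, among them 47 with a mean of 5 CPM required over all 6 libraries, also chosen after the data were seen. Of the 57, 51 were picked again from all 6 sets of 5 libraries. Since fewer libraries ease the rule on the gap, apart from a refitted scaling, this count does not measure stability. Called lower were 5 of the 57 and 5 of all tested genes, with 0 called higher (720 at an unadjusted p under 0.05 in edgeR). At an adjusted p under 0.05, limma-voom gave 4, 4 and 0. Library totals gave 9, 9 and 1, no filter 9, 9 and 1, an adjusted p under 0.1 16, 17 and 6, DESeq2 56, 125 and 108, and the fit without both control replicate 2 and flooding replicate 3 gave 23, 151 and 145. Upper quartile factors gave 7, 7 and 1. With 1 library left out the counts were 0 to 17, 0 to 96 and 0 to 26. With the replicate block edgeR called 0, 0 and 0 genes, where an unadjusted p under 0.05 was reached by 57, 749 and 771. Deviations from the group means correlated at 0.06, 0.16 and 0.12 between samples of the same number. The first is under 0.1, so the samples were not treated as paired, although every sample was most like its own number. For all of these differences the cause was not tested. A block or a smaller set of libraries also leaves fewer degrees of freedom, whose part was not tested either. The median log2 change of the 57 ran from -1.74 to -1.61 over 16 settings. Prupe.8G107300_v2.0.a1 (log2 fold change -6.58 to -5.42) passed without a filter, in DESeq2, without control replicate 2 or flooding replicate 2, without control replicate 2 and flooding replicate 3, and at the looser threshold (adjusted p from 1.66e-22 to 0.446 over 16 settings). Prupe.8G126000_v2.0.a1 (-3.47 to -2.77) passed in DESeq2 alone (adjusted p 7.94e-12 to 0.550). Depth limits the genes with under 10 reads in a flooded library.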
